A study of Homo sapiens with 27 samples.

Results

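MDA-MB-231 cells, an invasive human breast cancer line, were profiled 8 h after the start of treatment and compared with the 0 h arrays. The comparison used 6 of the 27 arrays of the study, namely 3 arrays of 8 h and 3 of 0 h, matched by treatment series, which were chosen by their labelled time and treatment and by no measured value. The treatments were DMSO as the vehicle, 5SGlcNAc at 50 µM, an inhibitor of the transferase OGT that attaches O-linked N-acetylglucosamine to proteins, and Thiamet-G at 25 µM, an inhibitor of OGA, the hydrolase that removes it. Each treatment had a single array at each of 0, 2, 4, 6, 8 and 24 h. Cells were grown in DMEM with 10% FBS, and the labels do not say what a 0 h array of an inhibitor series received. They also do not say that the arrays of a series came from separate cultures, so p-values measure the spread between arrays only.

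The 3 arrays of 8 h had received different agents, and the comparison tests the mean change over the 3 series. A gene can pass with little change in 1 of them. SPRY2 passed with changes in log2 level of -0.47 with DMSO, -0.37 with 5SGlcNAc and -0.08 with Thiamet-G. Time since treatment, time in culture and handling cannot be told apart here, because there were no arrays of untreated cells at 8 h. Values are log2 levels of the probe set that represents a gene, and a change is the level at 8 h minus that at 0 h, so a change of 1 is a doubling. A gene is said to have risen or fallen where limma, fitted over all 18 arrays of 0 to 24 h, gave an adjusted p under 0.05. Values of several arrays are given in the order DMSO, 5SGlcNAc, Thiamet-G, and errors on changes are standard errors. The spread in the fit comes from all 18 arrays, so differences between the series at other times enter the standard errors too. SLC7A11 changed by 0.51, 0.47 and 0.51 with a standard error of 0.12, and its levels at 24 h were 11.32, 11.93 and 11.36.

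Cells handled at the bench respond in waves. Immediate early genes such as EGR1 and FOS are transcribed within minutes of serum or stress signals and are shut off again. Interferon stimulated genes are switched on by the factor complex ISGF3, which binds the interferon stimulated response element, and replication genes are switched on by E2F factors late in G1 as cells enter S phase. MDA-MB-231 is a mesenchymal-like line, in which luminal keratins, claudins and E-cadherin are lower than in luminal breast cells.

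Pairwise correlations over all probe sets were 0.9983 to 0.9986 among the 0 h arrays, 0.9974 to 0.9985 among the 8 h arrays and 0.9957 to 0.9978 between the times. As a check on RNA integrity, the ACTB signal at the 3-prime end exceeded that at the 5-prime end by 0.808, 0.717 and 0.59 (log2) at 0 h and by 0.608, 0.786 and 0.714 at 8 h, so the times overlapped. The 12 markers of the line were bright, with a mean level of 12.21 at 0 h and 12.15 at 8 h, and none of them passed the test. For 5 of the 12 every 8 h array lay below every 0 h array, beside 13.4% of all genes, and for none did every array lie above. Markers of haematopoietic cells (9 genes, mean level 5.84 at 0 h and 5.80 at 8 h), endothelium (8 genes, 5.77 and 5.72) and fibroblasts (13 genes, 6.18 and 6.13) were dim, and none of those passed either.

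Promoter sequence is shown for 5 genes of the interferon and replication lists, whose promoters were searched for response elements. Each is a stretch of 120 bases of the RefSeq promoter table (GRCh38.p14), written 5′ to 3′ on the gene's strand. Capitals mark matches to the response element of interferon stimulated genes, searched as GAAA, any 2 bases and GAAA on both strands, or to the E2F element, searched as TTTCGCGC or TTTGGCGC on both strands. Overlapping matches run together in capitals. The windows are IFIT1 (chr10:89392458-89392577, plus strand), IFIT3 (chr10:89327803-89327922, plus strand), IFI44 (chr1:78649669-78649788, plus strand), ISG15 (chr1:1013332-1013451, plus strand) and MCM6 (chr2:135876499-135876618, minus strand).
IFIT1: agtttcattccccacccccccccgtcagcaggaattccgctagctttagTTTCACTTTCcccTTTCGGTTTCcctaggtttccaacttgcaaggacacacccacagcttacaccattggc
IFIT3: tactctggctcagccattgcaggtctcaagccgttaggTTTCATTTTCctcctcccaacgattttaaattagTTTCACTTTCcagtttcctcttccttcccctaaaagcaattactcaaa
IFI44: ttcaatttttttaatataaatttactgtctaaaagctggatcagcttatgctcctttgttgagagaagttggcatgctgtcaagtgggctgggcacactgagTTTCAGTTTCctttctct
ISG15: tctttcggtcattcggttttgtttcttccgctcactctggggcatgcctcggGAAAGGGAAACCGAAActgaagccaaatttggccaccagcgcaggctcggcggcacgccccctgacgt
MCM6: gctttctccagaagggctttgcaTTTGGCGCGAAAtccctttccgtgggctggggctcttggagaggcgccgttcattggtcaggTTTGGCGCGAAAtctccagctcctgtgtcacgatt

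From 0 h to 8 h, 761 of 11963 genes passed the test (6.36%), of which 463 rose (3.87%) and 298 fell (2.49%). Most changes were small. Among the genes that passed, 17 rose and 15 fell by more than 1.5-fold, and only IFIT1 rose and only GDF15 fell by more than 2-fold. The change had the same sign in the 3 series for 760 of the 761 genes, against 42.8% of all genes. The 8 h arrays lay all above or all below the 0 h arrays for 752 of the 761, beside 30% of all genes. The test itself favours genes whose 3 series agree, so both counts follow largely from the selection and give no separate support. Of the genes that passed, 60.8% rose, but after quantile normalization of the arrays 459 rose and 458 fell (50.1% rose), so the balance between rises and falls depends on the scaling, and median centring gave 66.1%. The count rests on having 3 series: without the DMSO series 1 gene passed (GCH1, adjusted p = 0.0358), without the 5SGlcNAc series 112 did and without the Thiamet-G series 85 did. Of the 79 genes named here by rule that passed, 29 kept their call in each of the 6 fits that left out an array of 0 h or 8 h.

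The largest rise was that of IFIT1, an interferon-induced protein that binds foreign RNA. Its levels were 8.12, 8.15 and 8.09 at 0 h and 9.54, 9.42 and 9.91 at 8 h. The lowest 8 h array lay well above every 0 h array, and the change was 1.502 ± 0.258 (adjusted p = 0.00442). GCH1, the first enzyme of tetrahydrobiopterin synthesis, went from 9.32, 9.22 and 9.18 to 10.27, 10.13 and 10.03. This change of 0.90 ± 0.07 had the smallest adjusted p of all genes (2.38e-05). TRIM36, a ubiquitin ligase, rose by 0.82 ± 0.10 (adjusted p = 0.000978), from 7.07, 7.07 and 6.96 to 7.95, 7.84 and 7.78. APAF1, the scaffold of the apoptosome, rose by 0.60 ± 0.07 (adjusted p = 0.000978) on its brightest probe set; the others changed by -0.15 and 0.14, and with the mean of its probe sets the change was 0.20 (adjusted p = 0.155, the highest over its alternatives, whose lowest was 2.09e-05).

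Several of the other large rises rest on a single probe set. The fibroblast growth factor receptor gene FGFR3 rose by 0.91 on its brighter probe set, while the dimmer one changed by -0.03. VAMP1, a vesicle fusion protein, rose by 0.68 where its other probe sets changed by 0.13 and -0.10, and ID4, an inhibitor of helix-loop-helix factors, rose by 0.66 against 0.16 and 0.20. RSRP1 behaved differently, with 0.67 on the brighter and 1.22 on the dimmer probe set. COX20, an assembly factor of cytochrome oxidase, went from 7.86, 8.17 and 7.48 to 8.49, 8.61 and 8.62, a change of 0.74 ± 0.19 whose call was lost in 5 of the 6 fits that left out an array.

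**Figure D1:**
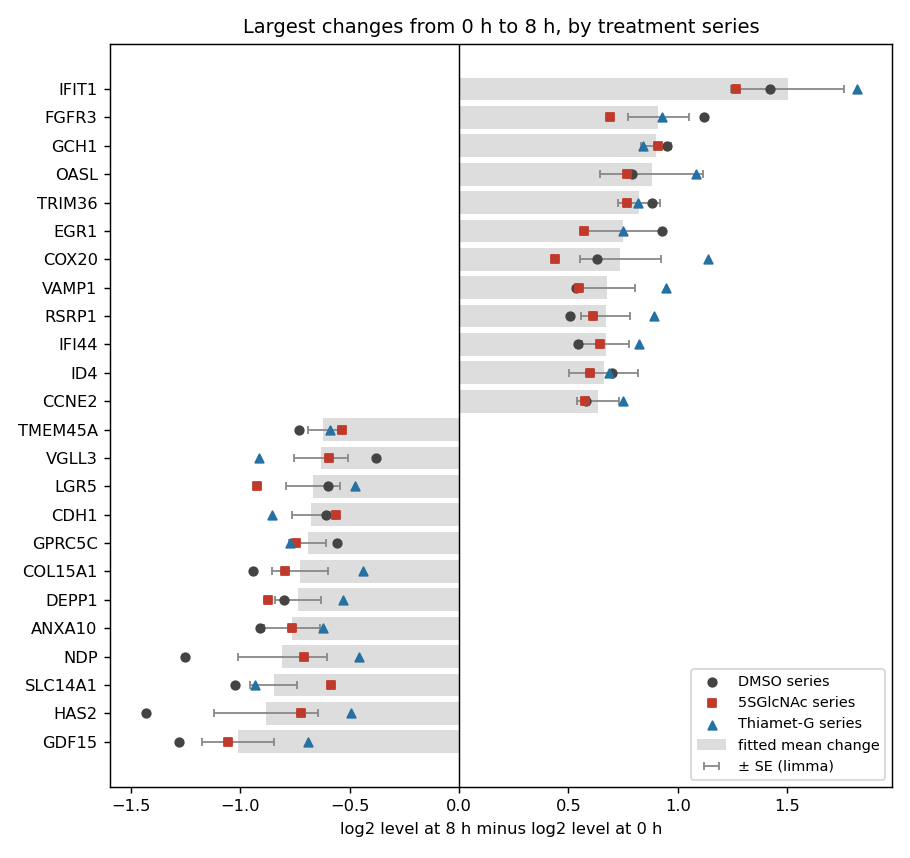
Change in log2 level from 0 h to 8 h for the 12 largest rises and the 12 largest falls among genes that passed the test; bars give the fitted mean change, whiskers its standard error and points each treatment series. IFIT1 had the largest rise (1.502) and GDF15 the largest fall (-1.01), and for every gene shown the 3 series moved the same way.

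GDF15, a stress-induced cytokine, had the largest fall. Its levels were 8.82, 8.85 and 8.55 at 0 h and 7.54, 7.79 and 7.85 at 8 h, a change of -1.01 ± 0.16 (adjusted p = 0.00312). No 8 h array reached the lowest 0 h array, although the dimmer probe set of the gene changed by only -0.23. HAS2, a hyaluronan synthase, fell by 0.88 ± 0.24 (adjusted p = 0.0396), from 8.63, 8.50 and 8.48 to 7.20, 7.78 and 7.99. The fall of HAS2 was widest in the DMSO series, and its call was lost in 4 of the 6 fits that left out an array.

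SLC14A1, a urea transporter, fell from 5.94, 5.65 and 5.99 to 4.92, 5.07 and 5.06 (-0.85 ± 0.11, adjusted p = 0.0012). TMEM45A, a membrane protein, fell from 10.79, 10.77 and 10.77 to 10.06, 10.24 and 10.18 (-0.62 ± 0.07, adjusted p = 0.000707). These groups of arrays did not overlap. Further falls were those of NDP, a Wnt receptor ligand (-0.81), ANXA10, an annexin (-0.76), DEPP1, a FOXO-regulated protein (-0.74), COL15A1, a basement membrane collagen (-0.73), and GPRC5C, an orphan receptor (-0.69). LGR5, a receptor for R-spondins, fell by 0.67 on its brighter probe set and changed by -0.01 on the other. SLC14A1, NDP, COL15A1 and LGR5 were dim, at percentiles 14.3, 17.5, 17.1 and 12.4 of mean level among all genes. Their levels were close to those of the dim marker lists of other cell types.

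Of 36 measured genes of DNA replication and S phase, 9 rose, beside 3.87% of all genes, none fell and 27 did not pass; the median change was 0.14, beside -0.00438 over all genes. For 22 of the 36 every 8 h array lay above every 0 h array, beside 16.6% of all genes, and for 1 every array lay below (CDT1, a licensing factor, -0.20). CCNE2, the cyclin E2 that drives entry into S phase, went from 10.69, 10.67 and 10.70 to 11.28, 11.24 and 11.46, a change of 0.64 ± 0.10 (adjusted p = 0.00246). PCNA, the sliding clamp of DNA polymerase, rose by 0.41 ± 0.08 (adjusted p = 0.0069), from 12.92, 12.97 and 12.85 to 13.33, 13.27 and 13.38. These arrays did not overlap in either gene.

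The other replication genes that rose were the helicase subunits MCM4 (0.37) and MCM6 (0.27), the ribonucleotide reductase subunits RRM2 (0.35) and RRM1 (0.22), the origin subunit ORC6 (0.29), the thymidylate synthase TYMS (0.29) and the clamp loader subunit RFC5 (0.25). Leaving out single arrays gave 5 to 11 rises in the list, the 6 arrays alone gave 3, and without the DMSO series there were 0. The mitosis list of 36 had 2 rises (NUSAP1, a spindle protein, 0.33, and the kinesin KIF11, 0.26) and 1 fall (CDC20, an activator of the anaphase complex, -0.23), shares of 5.56% and 2.78% that lie near the 3.87% and 2.49% of all genes. The call of CDC20 was lost in each of the 6 fits that left out an array. RBL1, a retinoblastoma relative that restrains E2F, was the 1 of 16 G1 genes that passed (6.25%, beside 6.36% of all genes), with a rise of 0.42. Of 13 histone genes, H2AC6 (0.40) and H2BC12 (0.37) rose (beside 3.87% of all genes) and none fell, and neither passed without the DMSO 0 h array or without either Thiamet-G array.

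In the promoter table, 11 of the 33 S phase genes with a promoter held an E2F match (33.3%), against 1.83% of 9563 promoters. Over the whole comparison the match stood in 12 of 383 promoters of genes that rose (3.13%) and 1 of 237 of genes that fell (0.422%). MCM6, printed above, carried 4 matches in 2 overlapping pairs and was the only 1 of the 11 that rose; the other 10 did not pass. Of the other 8 replication genes that rose, 6 held no match and 2 had no promoter in the table. A match describes letters in the window and shows no binding.

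Of 18 measured markers of luminal epithelium, 8 fell, beside 2.49% of all genes, none rose and 10 did not pass; the median change was -0.19, and for 9 the 8 h arrays lay below the 0 h arrays without overlap, beside 13.4% of all genes, while for 1 they lay above. The members of this and the other lists were chosen with earlier results of these data known, so the shares may not be independent of those results. The summed log2 level of the luminal list ran from 151.0 to 152.6 at 0 h and from 147.6 to 148.2 at 8 h. KRT19, a keratin of simple epithelia, went from 11.10, 11.05 and 11.13 to 10.38, 10.58 and 10.52, a change of -0.60 ± 0.08 (adjusted p = 0.00198). The keratins KRT8 (-0.39) and KRT18 (-0.32) fell too, as did the tight junction proteins CLDN7 (-0.37) and CLDN4 (-0.28).

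The secreted trefoil protein TFF1 (-0.57 ± 0.14, adjusted p = 0.025) and the disulfide isomerase AGR2 (-0.51 ± 0.13, adjusted p = 0.0329) fell from 8.21, 8.15 and 8.13 to 7.67, 7.56 and 7.55 and from 9.50, 9.57 and 9.53 to 8.94, 8.95 and 9.17. Their calls were lost in 5 (TFF1) and 6 (AGR2) of the 6 fits that left out an array. CDH1, which encodes E-cadherin, was dim, with levels of 6.05, 5.89 and 6.14 at 0 h and 5.44, 5.33 and 5.28 at 8 h (-0.68 ± 0.09, adjusted p = 0.0012); its dimmer probe set changed by 0.03. Leaving out single arrays gave 2 to 6 falls in the list, and without the DMSO series there were 0. A change in the mix of cells and less RNA per cell cannot be told apart in these bulk samples.

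**Figure D2:**
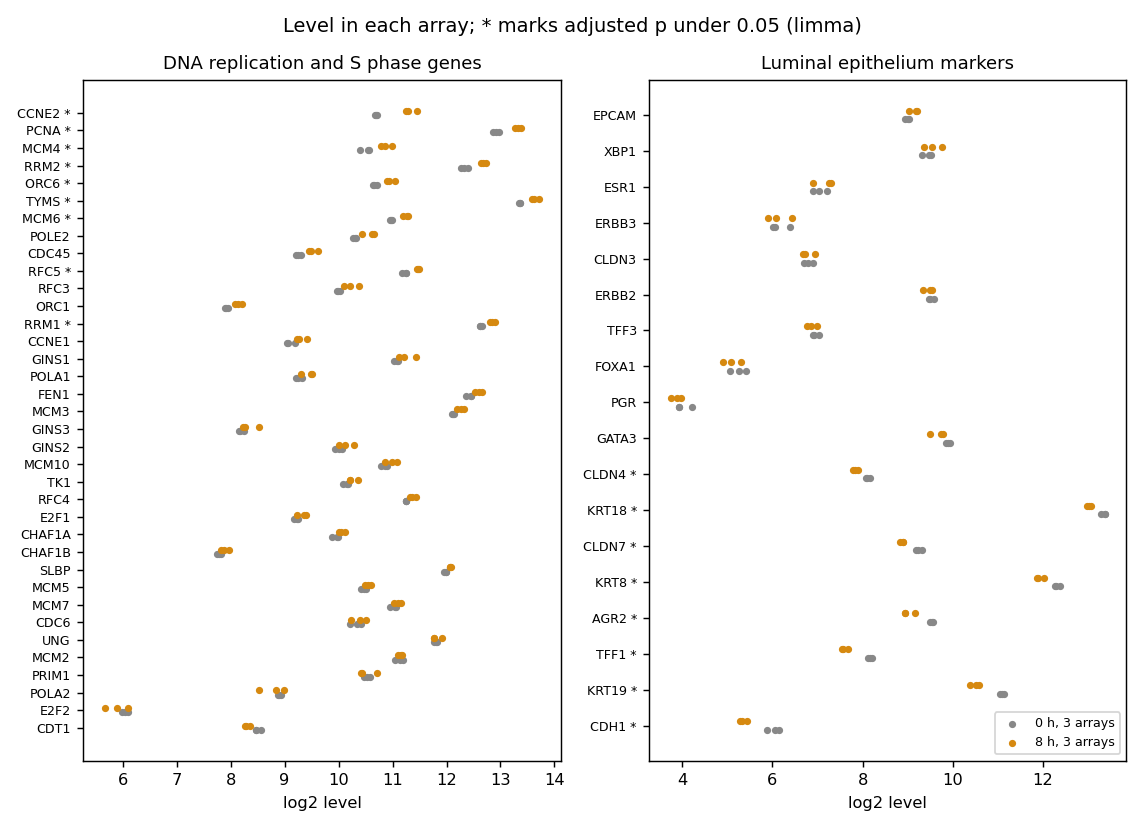
Log2 level of each gene of the DNA replication list (36 genes, left) and of the luminal marker list (18 genes, right) in the 3 arrays of 0 h (grey) and of 8 h (orange); asterisks mark genes that passed the test. In the replication list 22 genes have all 8 h arrays above the 0 h arrays, and in the luminal list 9 have them all below.

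Of 26 measured interferon stimulated genes, 3 rose (11.5%, beside 3.87% of all genes) and 2 fell (7.69%, beside 2.49%), and the median change was 0.03. Beside IFIT1, OASL, an antiviral oligoadenylate synthetase relative, went from 7.29, 7.28 and 7.28 to 8.08, 8.05 and 8.36, and IFI44 from 8.67, 8.6 and 8.62 to 9.21, 9.24 and 9.44. Their changes were 0.88 ± 0.23 (adjusted p = 0.0371) and 0.67 ± 0.11 (adjusted p = 0.00301). The call of OASL was lost in each of the 6 fits that left out an array, with adjusted p from 0.00505 to 0.179 over all its alternatives.

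The 8 h arrays lay above every 0 h array for 7 members and below for 7, beside 16.6% and 13.4% of all genes. IFIT3 changed by 0.53 (adjusted p = 0.172), ISG15, a ubiquitin-like modifier, by 0.39 (adjusted p = 0.13) and IFIT2 by 0.37 (adjusted p = 0.326), all with the arrays above and none passing. Among those below that did not pass were BST2, a tetherin (-0.22, adjusted p = 0.256), and IFITM1, a membrane protein that blocks viral entry (-0.20, adjusted p = 0.191). PSMB9, a subunit of the immunoproteasome, fell from 10.40, 10.30 and 10.33 to 9.83, 9.97 and 9.96 (-0.43 ± 0.10), and IFI35 fell by 0.32 ± 0.08. HERC5, a ligase for ISG15 that was chosen after its values were seen, rose by 0.54 ± 0.10 (adjusted p = 0.00817).

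The response element was present in 14 of the 18 interferon list promoters (77.8%), against 2.97% of all promoters, 3.39% of those of genes that rose and 4.22% of those of genes that fell. IFIT1 and IFIT3 each held 2 matches in the windows above. Of the 14 genes with a match 2 rose (IFIT1 and IFI44) and 12 did not pass, 5 of them with changes below 0. Of the 4 promoters with no match, those of IFI35 and PSMB9 belong to genes that fell.

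For IFIT1 and OASL, 8 h lay after the highest level. IFIT1 stood at 10.54, 10.35 and 9.29 at 4 h and at 10.17, 10.86 and 10.28 at 6 h, against 9.54, 9.42 and 9.91 at 8 h. OASL stood at 8.69, 9.56 and 8.89 at 6 h and at 8.08, 8.05 and 8.36 at 8 h. Each of the 8 h arrays was lower than the 6 h array of its series for both genes, but the 8 h minus 6 h changes of -0.81 ± 0.26 and -0.88 ± 0.23 did not pass (adjusted p = 0.532 for each).

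Of 28 immediate early factors, 6 were lower at 8 h than at 2 h (beside 1.14% of all genes) and 3 were higher (beside 2.97%). From 0 h to 8 h only EGR1, a zinc finger factor, passed (3.57% of the list, near the 3.87% of all genes that rose), with levels of 9.84, 9.84 and 9.71 against 10.77, 10.41 and 10.46 (0.75 ± 0.17, adjusted p = 0.0189). It had stood at 11.73, 11.97 and 11.07 at 2 h. Its call at 8 h was lost in 4 of the 6 fits that left out an array. FOS (0.60, adjusted p = 0.163) and ATF3 (0.50, adjusted p = 0.347) had all 8 h arrays above the 0 h arrays without passing.

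**Figure D3:**
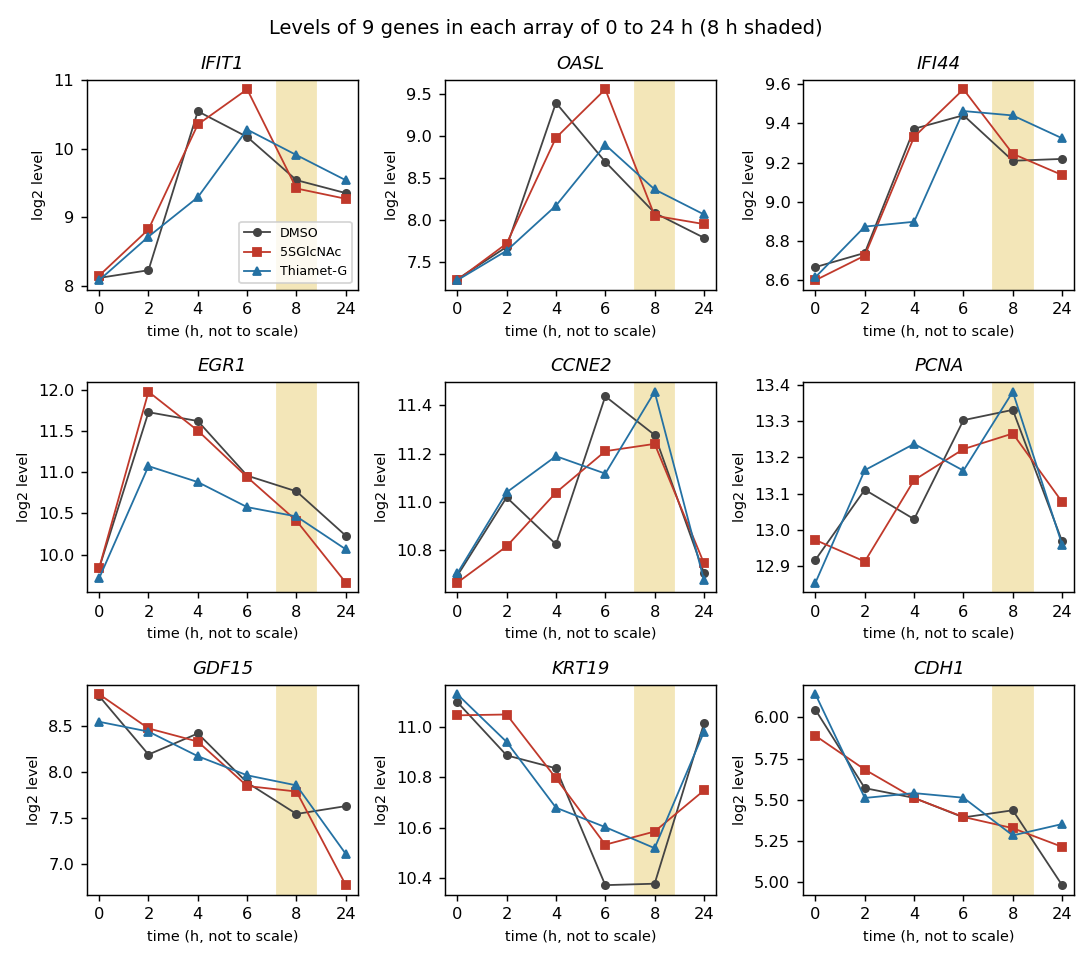
Log2 level of 9 genes in every array of 0 to 24 h, 1 line for each treatment series, with 8 h shaded and the time axis not to scale. IFIT1 and OASL are lower at 8 h than at 6 h in all 3 series, CCNE2 and PCNA are above their 0 h levels at 8 h and lower again at 24 h, and KRT19 is lower at 8 h than at 0 h and at 24 h.

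Of 20 cholesterol synthesis genes and SREBP2 targets, 3 rose (15.0%, beside 3.87% of all genes) and none fell: SC5D, a sterol desaturase, from 9.99, 9.95 and 9.93 to 10.57, 10.59 and 10.28 (0.53 ± 0.08, adjusted p = 0.00243), INSIG1, which retains the SREBP complex in the endoplasmic reticulum (0.52 ± 0.08, adjusted p = 0.00207), and IDI1, the isopentenyl diphosphate isomerase (0.32). The dimmer probe set of SC5D changed by -0.09, and those of INSIG1 by 0.36 and 0.03. Among 34 NRF2 targets, 3 rose (8.82%) and 2 fell (5.88%, beside 2.49% of all genes). GCLC, the catalytic subunit that makes the glutathione precursor, rose by 0.51 ± 0.09 (adjusted p = 0.00417), the cystine importer SLC7A11 by 0.50 (0.35 and 0.09 on its dimmer probe sets) and the dehydrogenase IDH1 by 0.30, while the reductases AKR1C1 (-0.37) and AKR1C3 (-0.32) fell.

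Neither NFE2L2, the NRF2 factor itself (0.13), nor its inhibitor KEAP1 (-0.03), HMOX1 (0.21) or NQO1 (0.21) passed the test. None of 13 genes of arrestins and the thioredoxin system passed either, including TXNIP, the thioredoxin inhibitor (0.14). TXNRD1 of that list was just short of the threshold, at 0.37 ± 0.10 (limma adjusted p = 0.0515). For 4 of the 13, TXNRD1 among them, every 8 h array lay above every 0 h array, and for 1 every array lay below. SLC7A11 is also on the list of ATF4 targets, where MTHFD2, a mitochondrial folate enzyme, was the other of 2 rises among 31, with no falls (6.45% called, beside 6.36% of all genes). SLC30A1, a zinc exporter (0.27), and MT1F, a metallothionein (0.22), were the 2 rises among 10 genes of zinc handling (20.0%, beside 3.87% of all genes), 8 of which had all 8 h arrays above the 0 h arrays (beside 16.6%). Without probe sets ending in _x_at, which can match several genes, 4 of the 10 remained, 1 rose, and the median change of the list went from 0.149 to 0.0149. Of 19 collagen, hyaluronan and matricellular genes, HAS2 and COL5A1 (-0.29) fell (10.5%, beside 2.49%). SPP1 of the same list rose by 0.41 from a dim level (5.26%, beside 3.87%). The list does not hold COL15A1. Of all 32 genes with a collagen symbol, COL15A1 and COL5A1 fell (6.25%) and none rose. The call of COL5A1 was lost in each of the 6 fits that left out an array.

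Of 22 ribosome biogenesis genes, 5 fell (22.7%, beside 2.49% of all genes) and none rose: RRP9 (-0.39), RRP12 (-0.33), RRS1 (-0.28), PES1 (-0.26) and MYBBP1A (-0.25), all needed for making ribosomal subunits. Without the DMSO 0 h array none of these 5 passed. None of 24 cytosolic ribosomal proteins passed. Of 20 actin-SRF and YAP targets, 5 fell (25.0%), among them the focal adhesion protein ZYX (-0.32) and the tropomyosin TPM4 (-0.31), and CCN2, a secreted YAP target, rose by 0.22 (5.0%, beside 3.87%); with the 6 arrays alone none of these passed.

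The shares of all genes that rose and fell, 3.87% and 2.49%, are the background for the counts that follow. Feedback inhibitors of ERK gave 2 falls of 15 (13.3%), DUSP4 (-0.33) and SPRY2 (-0.31). Among targets of TGF-beta and BMP, INHBA, a subunit of activin (-0.52, and -0.11 on its dimmer probe set), PMEPA1 (-0.42) and the activin antagonist FST (-0.30) fell (12% of 25), and ID4 and BAMBI, a decoy receptor (0.34), rose (8.0%). In the p53 list of 16, SESN1 (0.35), GADD45A (0.33) and CCNG1 (0.27) rose (18.8%) and GDF15 fell (6.25%). With the 6 arrays alone, or without the Thiamet-G 0 h array, none of these 3 rises passed. LRIG1, a negative regulator of EGF receptors, was the 1 rise (0.41) among 11 genes of the EGF family (9.09%).

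The clock genes CRY1, a repressor, and BMAL1, an activator, moved in opposite directions. CRY1 rose from 9.91, 10.01 and 9.89 to 10.33, 10.34 and 10.66 (0.51 ± 0.09, adjusted p = 0.00574), and BMAL1 fell from 8.34, 8.26 and 8.35 to 7.91, 8.13 and 7.80 (-0.37 ± 0.08, adjusted p = 0.0115). They were the only 2 of 18 clock genes to pass (11.1%, beside 6.36% of all genes). The splicing factor list of 25 gave 3 rises (12%), PNISR (0.41), CIRBP (0.29) and LUC7L3 (0.29), and 2 falls (8.0%), SRSF6 (-0.28) and SRSF1 (-0.28). The calls of PNISR and SRSF6 were lost in each of the 6 fits that left out an array. KLF9, a glucocorticoid-induced factor, fell by 0.54 and was the 1 of 13 glucocorticoid genes to pass (7.69%, beside 6.36%). Of the 38 lists 13 had no member that passed, among them the unfolded protein response (19 genes), NF-kB driven cytokines (23), proteasome subunits (26) and the respiratory chain (23).

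**Figure D4:**
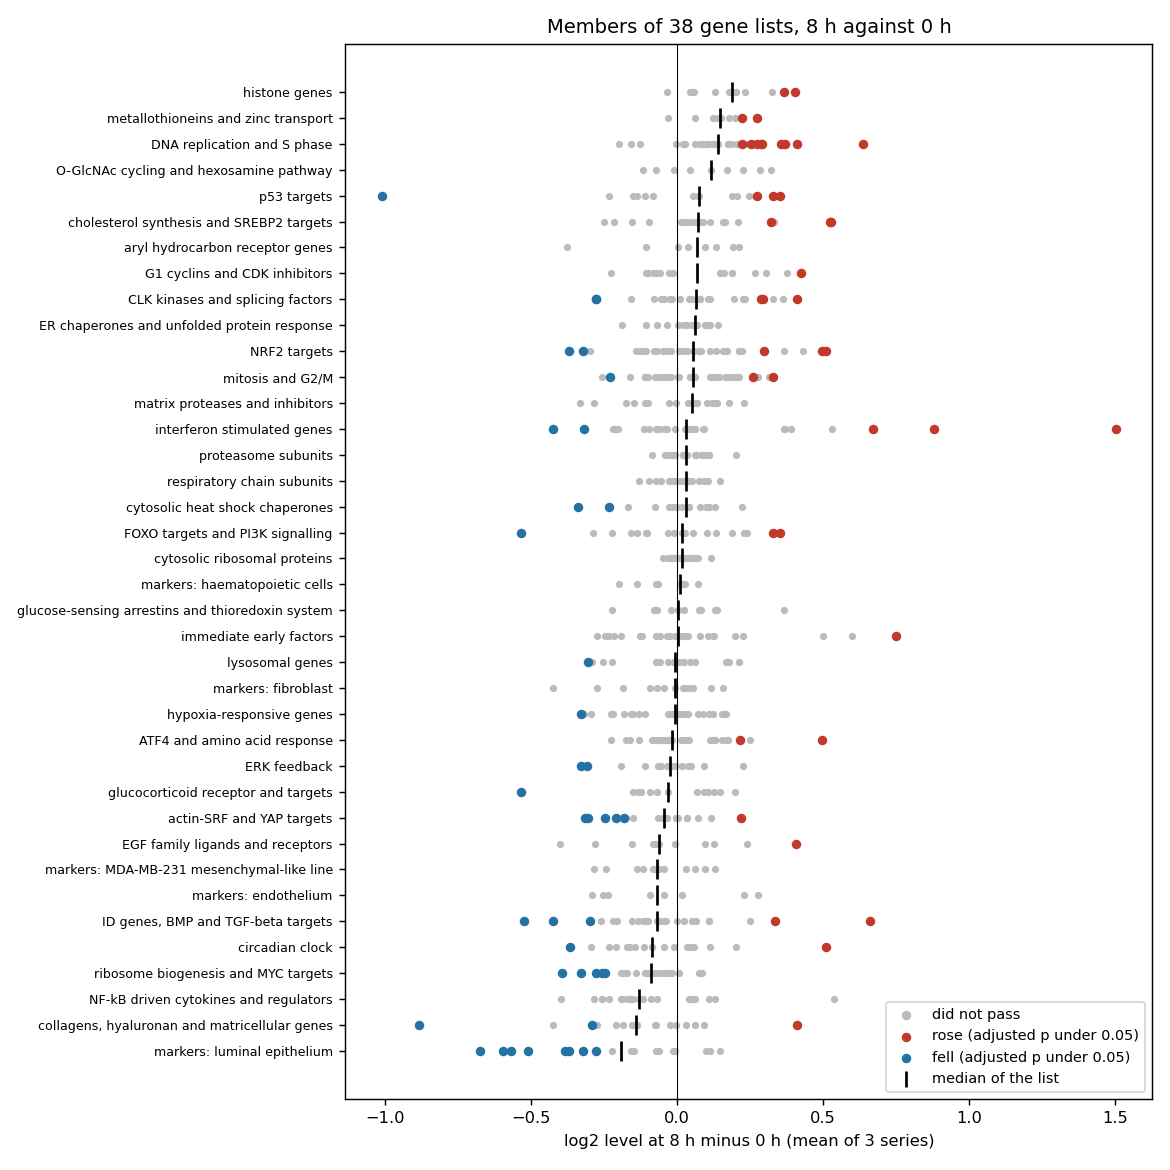
Change in log2 level from 0 h to 8 h of every measured member of the 38 gene lists, ordered by the median of the list (black bar); red points rose, blue points fell and grey points did not pass. The histone and replication lists stand near the top, with medians of 0.19 and 0.14, and the luminal markers stand last, at -0.19.

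The O-GlcNAc cycling enzymes differed between the treatments at 8 h, in single arrays and so with no test. OGA stood at 10.38, 10.44 and 10.36 at 0 h and at 10.82, 9.92 and 11.29 at 8 h, so it was higher in the DMSO and Thiamet-G series and lower with 5SGlcNAc. OGT stood at 11.41, 11.62 and 11.41 at 0 h and at 11.57, 12.44 and 11.39 at 8 h, highest with 5SGlcNAc. The 4 dimmer probe sets of OGT changed by 0.00, 0.21, 0.15 and -0.02 on average over the series. These averages do not give the change with 5SGlcNAc alone, so they cannot show whether those probe sets rose in that series. As a mean over the series, neither OGA (0.29, adjusted p = 0.667) nor OGT (0.32, adjusted p = 0.328) passed. None of the 9 genes of the pathway did.

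The series differed in how far genes moved. Changes of at least 1.5-fold up or down were seen for 36 and 66 genes with DMSO, 36 and 37 with 5SGlcNAc, and 120 and 127 with Thiamet-G. The rises were largest in the Thiamet-G series for 277 of 463 genes (59.83%, beside 47.0% of all genes), and the falls were largest in the DMSO series for 168 of 298 (56.38%, beside 27.7% of all genes). At 8 h, 80 genes differed by at least 1.5-fold between the Thiamet-G and DMSO arrays and 6 between the 5SGlcNAc and DMSO arrays, against 26 and 12 at 0 h. With single arrays these differences have no test.

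The neighbouring times place 8 h within the course. All of these comparisons share the 8 h arrays. Between 2 h and 8 h 491 genes passed (4.1%), 355 of them higher at 8 h (2.97%) and 136 lower (1.14%); after quantile normalization 313 were higher and 204 lower (60.5% higher, against 72.3%). The largest differences were falls of FOSB (-1.43), FOS (-1.35), ATF3 (-1.15) and EGR1 (-1.04), and on the higher side IFIT1 (1.03), NABP1 (0.86), a single-stranded DNA binding protein, BBS7 (0.75) and APAF1 (0.67).

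Against 6 h, no gene passed with limma (0%), while 979 genes had an unadjusted p under 0.05 (8.18%). Against 24 h, 515 genes passed (4.3%), 309 higher at 8 h (2.58%) and 206 lower (1.72%). Of these 60.0% were higher, but without the 5SGlcNAc 24 h array 209 genes were higher and 247 lower (45.8% higher), so the balance turned. PTGS2, the inducible cyclooxygenase, was higher at 8 h (1.21), with levels of 7.90, 7.89 and 7.89 against 6.87, 6.21 and 6.96 at 24 h, as were AGR2 (1.07) and the class II antigens HLA-DRA (1.01) and HLA-DPA1 (0.90). TRIM16 (-0.67), the neuregulin NRG2 (-0.62), the keratin KRT15 (-0.61) and SEL1L3 (-0.61) were lower at 8 h than at 24 h.

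Some 8 h changes had returned by 24 h and others had gone further. CCNE2 was higher at 8 h than at 24 h (0.61 ± 0.10), where its levels of 10.71, 10.75 and 10.68 were near those of 0 h. In the replication list 6 of the 36 genes were higher at 8 h than at 24 h, beside 2.58% of all genes. KRT19 was lower at 8 h than at 24 h (-0.42 ± 0.08), when it stood at 11.01, 10.75 and 10.98. TFF1 (0.83) and AGR2, by contrast, were higher at 8 h than at 24 h, when AGR2 stood at 8.02, 7.5 and 8.33. Of 34 NRF2 targets, 7 were lower at 8 h than at 24 h, beside 1.72% of all genes. That count is of mean changes over the series and does not show that each series moved. Without the 5SGlcNAc series 13 genes in all passed against 24 h, with 41 without the Thiamet-G and 193 without the DMSO series.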

How the data were processed

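Biotin-labelled RNA was hybridised to Affymetrix arrays. Log2 values were deposited by the authors after RMA, per the submitters' processing notes; version and genome build are not given in the sources used here. Of 22277 probe sets, 62 were controls, 19064 named 1 gene, 1043 several and 2108 none in the platform annotation; symbols were updated by Entrez identifier for 19052. Each of 11963 genes was represented by its brightest probe set over 18 arrays (4310 genes had more than 1). The arrays of 48 h were not used, because they have no 0 h arrays of their own.

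limma 3.58.1 in R 4.3.3 was fitted to the 18 arrays of 0 to 24 h with time and treatment series as terms (10 residual degrees of freedom), tested two-sided with Benjamini-Hochberg adjustment at 0.05, and checked on simulated data. The number of arrays limits the precision. Named genes were the 12 largest rises and 12 largest falls with the same sign in 3 series, up to 4 members of each list by size of change or, where none passed, the 2 smallest p, the 4 largest each way against other times, and OGT, OGA, NFE2L2, KEAP1, TXNIP, HMOX1 and NQO1; further members that passed were named to complete counts. The members and lists were chosen with earlier results of these data known. Promoters (250 bases before to 50 after the start listed first) came from RefSeq, GRCh38.p14, for 9563 genes. Alternatives covered scaling, dim genes, probe sets, the variance model, arrays and series in the fit, and RNA integrity.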

Additional observations from a re-analysis of the deposited data

Results flagged for a closer look

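OGA changed in opposite directions between series. From 0 h to 8 h its log2 level changed by 0.45 with DMSO, by -0.53 with 5SGlcNAc and by 0.94 with Thiamet-G. The change with 5SGlcNAc minus that with DMSO was -0.97, and the change with Thiamet-G minus that with 5SGlcNAc was 1.46. Each series had a single array at each time, so the difference was not tested. A second probe set of OGA changed by 0.57, -0.41 and 1.13 in the same series.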

How the results depend on the processing

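The number of arrays limits these results. Of 79 named genes that passed, 29 kept their call in each of the 6 fits that left out an array. From 0 h to 8 h, 761 genes passed. Without dim genes 1205 did, with trend and robust variance 1184, with the 6 arrays alone 268, and without the DMSO, 5SGlcNAc and Thiamet-G series 1, 112 and 85. Leaving out single arrays gave 206 (without DMSO 0 h) to 525 (without DMSO 8 h), with 280 and 267 without the Thiamet-G arrays of 0 h and 8 h and 428 and 432 without those of 5SGlcNAc. For 8 h against 2 h (491), the same settings gave 795, 754, 0, then 4, 1 and 62, and 62 (without 5SGlcNAc 2 h) to 428. For 8 h against 24 h (515), they gave 885, 917, 59, then 193, 13 and 41, and 146 (without 5SGlcNAc 8 h) to 475. Against 6 h, 0 genes passed in the alternatives run except without DMSO 8 h, where 3 did. The cause was not tested, beyond the fewer genes or arrays in the fit.

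Of 2292 values of named genes under alternatives, 1780 kept direction and side of the threshold, 462 lost the call and 42 gained it. The sign turned in 8, all of genes that had not passed: SEL1L with the mean of probe sets (-0.0564), TRIM16 without the DMSO series (0.0082) or its 8 h array (0.00421, in a range over single arrays down to -0.128), SEL1L3 without the DMSO series (0.0605), its 0 h array (0.0073) or its 8 h array (0.0276, in a range down to -0.0897), OGA without the Thiamet-G series (-0.0400) and KEAP1 without the Thiamet-G 0 h array (0.00068, in a range down to -0.0878). The cause was not tested. No paired analysis was possible by replicate number, because the arrays of 0 to 24 h carry none. Arrays were matched by treatment series instead: the series was a term of the fit, the 268 genes above come from the 6 matched arrays alone, and without the term 690 genes passed.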

Other observations

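Gene families grouped by symbol, chosen after their values were seen, are read beside the 3.87% of all genes that rose and the 2.49% that fell. Of 21 cyclins 5 rose (CCNE2, CCNJ, CCNF, CCNG1 and CCNT2, 23.8%) and none fell. Of 34 keratins 4 fell (KRT19, KRT7, KRT8 and KRT18, 11.8%) and none rose. KRT19, KRT8 and KRT18 are also among the luminal markers that fell, so these counts overlap. The calcium-binding proteins S100A2, S100A3 and S100A4 were the 3 falls among 18 of their family (16.7%). Among 33 TRIM genes 5 rose (15.2%) and 2 fell (6.06%). Among 235 zinc finger genes with a ZNF symbol, 12 rose (5.11%) and 2 fell (0.851%), shares near those of all genes.

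Genes that rose had a median gene length of 44.69 kb, those that fell 22.53 kb and all genes 28.85 kb. The median level at 0 h was 9.41 for genes that rose, 9.14 for those that fell and 8.18 for all genes.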
